A study of Homo sapiens with 9 samples.

Results

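The axon guidance ligands and receptors were read as a group from the transcriptomes of 3 related human mammary epithelial lines. Members were chosen by symbol: the semaphorins of classes 3 to 7, plexins, neuropilins, ephrins, Eph receptors, Slits, Robos, netrins and UNC5 receptors. The rule matched 70 of the 60199 gene symbols in the count table, 37 of them ligands and 33 of them receptors or co-receptors. Of the 70 members, 50 had enough counts to be tested among 15717 genes, and 42 reached a mean of 1 CPM, the count scaled to a common library size, over the 9 libraries. Library sizes for CPM were scaled by the trimmed mean of M values.

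All 9 cultures came from MCF10A, an immortalised, non-malignant human mammary epithelial line that grows with EGF, insulin, hydrocortisone, cholera toxin and horse serum. The 3 CT cultures (MCF10A_CT in the labels) had no supplement and were labelled not transformed. The 3 MC26 cultures came from unsorted MCF10A cells kept for a long time in BMP2 and IL6, and the 3 M1B26 cultures from cells first sorted for the BMP receptor BMPR1B, then kept in the same factors and selected as soft-agar clones. Both treated lines were labelled transformed and were grown with BMP2 and IL6, so exposure, sorting and clonal selection cannot be told apart from line, and no batch was labelled. The design describes the cultures as independent. Whether the M1B26 libraries were separate soft-agar clones or cultures of a pool of clones is not stated in the sources used here. All p-values measure the spread between these cultures of 1 parental line. For M1B26 that spread may lie between clones or between cultures of a pool.

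Libraries held between 21425118 and 80076597 counts, with CT replicate 2 the shallowest. Correlations of log2 CPM over genes were 0.986 to 0.995 within a line and 0.951 to 0.975 between lines. The basal epithelial markers KRT5, KRT14 and TP63 were present in every line, with the 8 listed basal markers summing to 8861 to 10903 CPM in CT, 14386 to 18110 CPM in MC26 and 9788 to 10383 CPM in M1B26. KRT14 rose in both treated lines (4.34 in MC26 and 3.33 in M1B26 on the log2 scale). KRT5 fell in M1B26 (-0.42) and was not called in MC26. KRT6A (1.67 and 0.62), TP63 (1.29 and 1.31) and ITGA6 (1.39 and 0.93) also rose in MC26 and M1B26. CDH3 rose in MC26 (0.41) and EGFR fell in M1B26 (-0.48), each called against CT in that line only. KRT17 was not called in either line. The 2 pan-epithelial markers, CDH1 and EPCAM, summed to 133 to 161 CPM in CT, 51.1 to 58.9 CPM in MC26 and 97.7 to 141 CPM in M1B26. CDH1 fell in both lines (-0.91 and -0.79). EPCAM fell in MC26 (-2.25) and was not called in M1B26 (0.04). Of the 6 luminal markers, ESR1, PGR and KRT19 had means under 1 CPM in each line, while KRT8, KRT18 and GATA3 were present. The list summed to 838 to 968 CPM in CT, 639 to 669 CPM in MC26 and 851 to 879 CPM in M1B26. KRT8 (-0.88 and -0.27) and GATA3 (-0.45 and -1.18) fell in MC26 and M1B26. KRT18 fell in MC26 (-0.29) and was not called in M1B26. The weak ESR1 rose in both lines (1.07 and 2.05). All 6 neuronal markers had means under 1 CPM and summed to 0.588 to 1.29 CPM a library. Among markers of other cell types, PTPRC, CDH5 and COL1A2 were at or near 0, but others were present. The 4 blood markers summed to 6.90 to 11.0 CPM in CT, 9.72 to 17.8 in MC26 and 33.8 to 47.9 in M1B26. Nearly all of this was CD14. The 6 fibroblast markers summed to 37.4 to 37.8 CPM in CT, 17.1 to 56.8 in MC26 and 28.5 to 39.9 in M1B26. Most of this was DCN and COL1A1. Mean COL1A1 was 7.73, 9.73 and 15.4 CPM in CT, MC26 and M1B26, and mean LUM 0.108, 0.128 and 5.11 CPM. Mean DCN was 29.0, 22.9 and 14.0 CPM in the same order and was not called in either treated line. CD14 (2.06), COL1A1 (0.98) and LUM (5.59) rose in M1B26 on the log2 scale and were not called in MC26. The 5 endothelial markers summed to 2.19 to 8.25 CPM over all libraries. The part of any such cells in the results below was not tested.

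Guidance cues were first described in growing axons, where they steer the growth cone by attraction or repulsion, and epithelia use the same molecules in adhesion, boundary formation and branching. Ephrins are tethered to the membrane and signal through Eph receptor tyrosine kinases on the neighbouring cell, with reverse signalling into the ephrin-bearing cell. Class 3 semaphorins are secreted and bind neuropilins, which pair with plexins to pass the signal on, whereas most membrane semaphorins bind plexins directly. Netrins act through DCC, neogenin and UNC5 receptors, and Slits through Robos. In the mammary gland, netrin and Slit signalling are known for their part in the layering and branching of ducts.

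Levels between genes were compared per kilobase of exonic sequence, using GENCODE v44 gene models on GRCh38. The length was that of the merged exons of all annotated transcripts of a gene. Transcripts in use can be shorter, so ranks between genes and family shares hold for these lengths only. EPHA2, an ephrin-A receptor of epithelial cells, had the highest per-length level of all members in each line, at 47.0 ± 5.89 CPM per kilobase in CT, 62.3 ± 10.4 in MC26 and 55.6 ± 2.52 in M1B26 (mean ± SD, n = 3 cultures here and below). PLXNB2, a receptor for class 4 semaphorins, was second in CT with 33.8 ± 5.81 CPM per kilobase. EPHB4 and EFNB2, a receptor and ligand that bind each other, followed with 21.1 ± 2.80 and 19.3 ± 0.912 CPM per kilobase in CT, a gap inside their spread. EFNB1 ranked 6 in CT, 3 in MC26 and 2 in M1B26, with per-length levels of 16.4 ± 2.60, 28.8 ± 1.79 and 38.3 ± 4.32 CPM per kilobase. SEMA4B ranked 11, 8 and 4 in the same order of lines, and SEMA3C 10, 18 and 14.

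The 20 members that were not tested were EFNA2, EPHA3, EPHA5, EPHA6, EPHA7, EPHA8, EPHB1, NTN3, NTN5, NTNG2, PLXNA4, ROBO2, SEMA3D, SEMA3E, SEMA4A, SEMA5B, SLIT1, SLIT3, UNC5C and UNC5D. None of them had more than 18 counts in any library, their highest mean was 0.168 CPM, and EPHA7 and SEMA3D had no count in any of the 9 libraries. A count of 0 allows up to 3 counts, or 0.0366 to 0.131 CPM depending on the library, for counting error only. In these cells the EphA family was therefore read almost wholly from EPHA1 and EPHA2, the Slits from SLIT2 and the secreted netrins mainly from NTN4.

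Against CT, 31 of the 50 tested members changed in MC26 (adjusted p under 0.05, edgeR quasi-likelihood test), 14 of them higher and 17 lower. The share was 62%, beside 38.7% of all genes tested, with 18.8% of all genes higher and 19.9% lower. Changes of at least 2-fold were 12 lower and 4 higher, beside 6.79% and 4% of all genes. In 37 members the MC26 and CT libraries did not overlap, beside 50.3% of all genes. The median log2 fold change of the members was -0.17 and that of all genes 0.00. With total counts in place of scaled library sizes, 12 members were called higher and 20 lower. In RNA from whole cultures, fewer cells expressing a gene and less RNA per cell cannot be told apart.

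In M1B26 against CT, 32 of the 50 members changed, 16 higher and 16 lower. That was 64.0% of members beside 48.9% of all genes, of which 25.2% were higher and 23.7% lower. At least 2-fold, 9 members were lower and 8 higher, beside 5.71% and 6.02% of all genes. The libraries did not overlap for 36 members, beside 59.0% of all genes, and the median log2 fold change was 0.02 beside 0.00. The even split shifted with total counts in place of scaled library sizes, to 14 members higher and 19 lower. The comparisons of MC26 and of M1B26 share the 3 CT libraries, so their values stand side by side below and each was tested on its own.

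Between the treated lines, 27 of 50 members differed, 18 higher and 9 lower in M1B26 than in MC26. The share was 54% beside 39.5% of all genes, with 21.2% of all genes higher and 18.4% lower. At least 2-fold, 6 members were higher and 2 lower, beside 5.92% and 2.25% of all genes. No overlap between libraries was seen for 32 members and 53.5% of all genes, and the median log2 fold change was 0.09 beside 0.00. Ligands made up 27 of the 50 tested members, 13 of the 18 higher ones and 4 of the 9 lower ones, a split that was not tested.

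**Figure D1:**
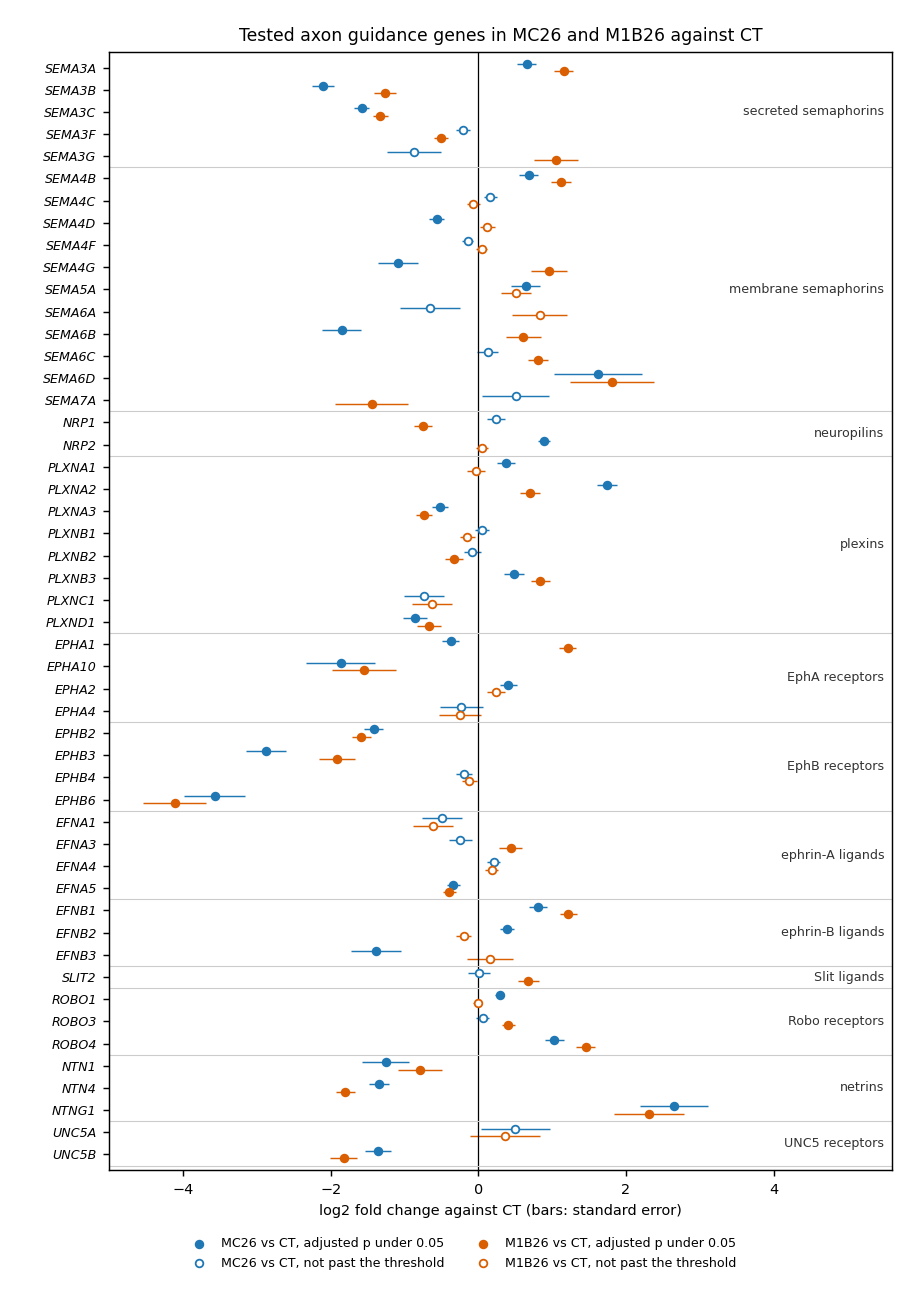
Log2 fold change of each tested guidance gene in MC26 (blue) and M1B26 (orange) against CT, grouped by family, with bars for the standard error and filled points for adjusted p under 0.05. EPHB6 and EPHB3 lie farthest to the left in both lines, while SEMA6B, SEMA4G and EPHA1 lie left of 0 in MC26 and right of 0 in M1B26.

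Of the 5 EphB receptors, 4 were tested, and EPHB2, EPHB3 and EPHB6 fell in both treated lines while EPHB4 was not called in either. EphB receptors bind ephrin-B ligands and, in other epithelia, hold neighbouring cell populations apart. EPHB6 differs from the rest of the family in that its kinase domain is inactive. The 250 bases before the RefSeq transcription start are printed here for EPHB2 and EPHB3, which fell, and EPHB4, which was not called. Those of EFNB1, an ephrin-B ligand that rose, are printed beside them. The windows are from GRCh38.p14, 5′ to 3′ on the gene's strand: EPHB2 chr1:22710589-22710838 (plus strand), EPHB3 chr3:184561535-184561784 (plus strand), EPHB4 chr7:100827524-100827773 (minus strand) and EFNB1 chrX:68828771-68829020 (plus strand). Each window abuts the start of its own gene in GENCODE, and exons of other genes inside the windows were not looked up. Capitals mark the E-box CAGCTG in EPHB3 and GGCGCC, the GC-rich SMAD1/5 motif, in EPHB4.
EPHB2: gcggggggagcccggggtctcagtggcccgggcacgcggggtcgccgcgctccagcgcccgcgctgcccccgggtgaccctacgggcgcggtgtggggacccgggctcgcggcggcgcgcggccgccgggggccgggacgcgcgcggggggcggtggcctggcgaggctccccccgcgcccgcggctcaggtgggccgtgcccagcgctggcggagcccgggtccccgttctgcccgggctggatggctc
EPHB3: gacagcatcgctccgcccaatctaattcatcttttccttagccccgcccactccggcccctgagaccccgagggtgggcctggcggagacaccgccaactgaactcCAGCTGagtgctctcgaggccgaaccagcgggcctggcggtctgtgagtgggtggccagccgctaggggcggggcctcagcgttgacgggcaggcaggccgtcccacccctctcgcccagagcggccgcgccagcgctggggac
EPHB4: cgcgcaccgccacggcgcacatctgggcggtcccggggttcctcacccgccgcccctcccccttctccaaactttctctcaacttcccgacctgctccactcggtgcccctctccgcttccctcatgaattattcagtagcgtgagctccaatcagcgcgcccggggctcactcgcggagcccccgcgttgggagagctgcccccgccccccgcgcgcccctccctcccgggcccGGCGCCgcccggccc
EFNB1: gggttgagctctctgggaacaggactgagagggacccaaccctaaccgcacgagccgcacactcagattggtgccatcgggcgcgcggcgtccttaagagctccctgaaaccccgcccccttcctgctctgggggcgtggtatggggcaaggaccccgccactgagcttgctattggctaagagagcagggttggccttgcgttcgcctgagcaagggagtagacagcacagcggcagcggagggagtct

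EPHB6 (chr7:142855061-142871094, plus strand, GENCODE v44) was read at 5.74, 3.89 and 5.81 CPM in CT, 0.124, 0.366 and 0.800 CPM in MC26, and 0.203, 0.402 and 0.295 CPM in M1B26. Every treated library lay below every CT library, and the treated lines overlapped. The level was 11.9-fold lower in MC26 (log2 fold change -3.57, SE 0.41, adjusted p = 7.43e-05, edgeR) and 17.3-fold lower in M1B26 (-4.11, SE 0.43, adjusted p = 2.34e-05). The treated libraries held only 5 to 34 counts of this gene, and without MC26 replicate 3 the MC26 log2 fold change was -4.41.

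EPHB3 (chr3:184561785-184582408, plus strand) gave 6.44, 3.93 and 5.93 CPM in CT, 0.820, 0.601 and 0.823 CPM in MC26, and 0.992, 1.47 and 1.88 CPM in M1B26. The 3 lines formed separate ranges, with MC26 the lowest. On the log2 scale the difference from CT came to -2.87 (SE 0.27, adjusted p = 1.74e-05, edgeR) in MC26 and -1.92 (SE 0.25, adjusted p = 1.02e-04) in M1B26. Between the treated lines it was 0.95 (SE 0.28, adjusted p = 0.0206), a call that was lost without MC26 replicate 2, M1B26 replicate 2 or M1B26 replicate 3 (0.71 to 0.95, adjusted p 0.0527 to 0.0891).

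EPHB2 (chr1:22710839-22921500, plus strand) was present at 17.2, 15.5 and 18.6 CPM in CT, 7.31, 6.30 and 5.62 CPM in MC26, and 5.32, 5.11 and 6.68 CPM in M1B26. Both treated lines lay below CT and overlapped each other. Log2 fold changes against CT were -1.42 (SE 0.13, adjusted p = 1.79e-05, edgeR) in MC26 and -1.58 (SE 0.13, adjusted p = 5.75e-06) in M1B26.

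EPHB4 (chr7:100802565-100827523, minus strand) held 141, 116 and 150.3 CPM in CT, 108, 116 and 133 CPM in MC26, and 119, 123 and 132 CPM in M1B26, and all 3 lines overlapped. Its log2 fold change was -0.19 (SE 0.10, adjusted p = 0.163, edgeR) in MC26 and -0.12 (SE 0.10, adjusted p = 0.359) in M1B26. Without CT replicate 2 the MC26 value was -0.29 and passed the threshold (adjusted p = 0.0255). As a share of the summed per-length EphB level, EPHB4 made up 85.7% ± 0.641 in CT, 96.02% ± 0.450 in MC26 and 95.9% ± 0.579 in M1B26. With 3 libraries a line an exact permutation test cannot go below p = 0.1, so shares are given without a test.

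All 3 ephrin-B ligands were tested, and they moved in different directions. EFNB1 (chrX:68829021-68842160, plus strand) was read at 59.5, 44.1 and 58.4 CPM in CT, 98.3, 88.2 and 98.5 CPM in MC26, and 126, 112 and 141 CPM in M1B26. The lines did not overlap and M1B26 was the highest. EFNB1 rose 1.75-fold in MC26 (log2 fold change 0.81, SE 0.12, adjusted p = 3.58e-04, edgeR) and 2.33-fold in M1B26 (1.22, SE 0.12, adjusted p = 1.44e-05). Against MC26 its M1B26 value was 0.41 (adjusted p = 0.0162) and was not called without MC26 replicate 2 (0.36, adjusted p = 0.0724) or M1B26 replicate 3 (0.33, adjusted p = 0.0671).

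EFNB2 (chr13:106489745-106535662, minus strand) stood at 92.4, 96.4 and 101 CPM in CT, 137, 134 and 108 CPM in MC26, and 89.3, 87.1 and 76.2 CPM in M1B26. MC26 lay above CT and M1B26 below it in every library. Relative to CT, the log2 change amounted to 0.38 (SE 0.10, adjusted p = 0.00971, edgeR) in MC26 and -0.20 (SE 0.10, adjusted p = 0.111) in M1B26, the latter passing without MC26 replicate 3 (adjusted p = 0.0495) and with total counts in place of scaled library sizes. M1B26 differed from MC26 by -0.59 (SE 0.10, adjusted p = 9.57e-04). An unnamed gene on the opposite strand overlaps 36.4% of the EFNB2 exons, and the strand setting of the counting is not given in the sources used here.

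EFNB3 (chr17:7705202-7711372, plus strand) gave 3.56, 2.49 and 3.20 CPM in CT, 0.522, 1.098 and 1.95 CPM in MC26, and 3.29, 3.998 and 3.21 CPM in M1B26. MC26 lay below the other lines, which overlapped. It fell 2.61-fold in MC26 (log2 fold change -1.38, SE 0.34, adjusted p = 0.00793, edgeR) and was 1.54 higher on the log2 scale in M1B26 than in MC26 (SE 0.34, adjusted p = 0.00447). EFNB3 and NTN1 are on chromosome 17, where the median log2 fold change of 849 tested genes was 0.00 in MC26 and 0.47 in M1B26 against CT, and the part of this shift in their values was not tested.

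**Figure D2:**
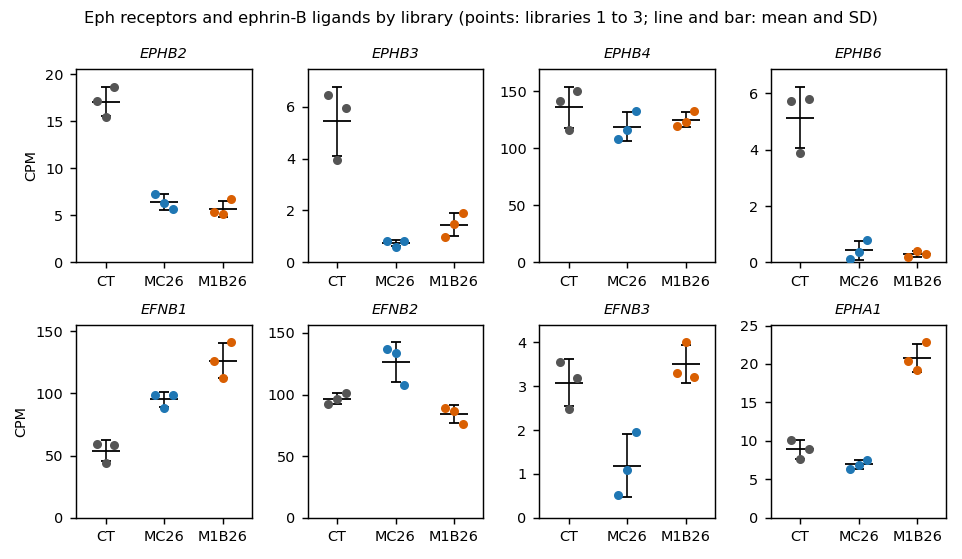
CPM of 4 EphB receptors, the 3 ephrin-B ligands and EPHA1 in each library (points, linear axes from 0), with the mean (line) and SD (bar) of each line. EPHB2, EPHB3 and EPHB6 are lower in all treated libraries than in CT, EPHB4 overlaps between the lines, and EFNB1 and EPHA1 are highest in M1B26.

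Within the ephrin-B ligands the make-up by per-length level turned from EFNB2 to EFNB1. EFNB1 held 44.5% ± 4.05 of the summed ephrin-B level in CT, 53.0% ± 3.98 in MC26 and 68.0% ± 4.03 in M1B26. EFNB2 held 52.9% ± 4.34, 46.3% ± 4.34 and 30.1% ± 3.74 in the same order. The CT and M1B26 shares of both genes did not overlap.

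**Figure D3:**
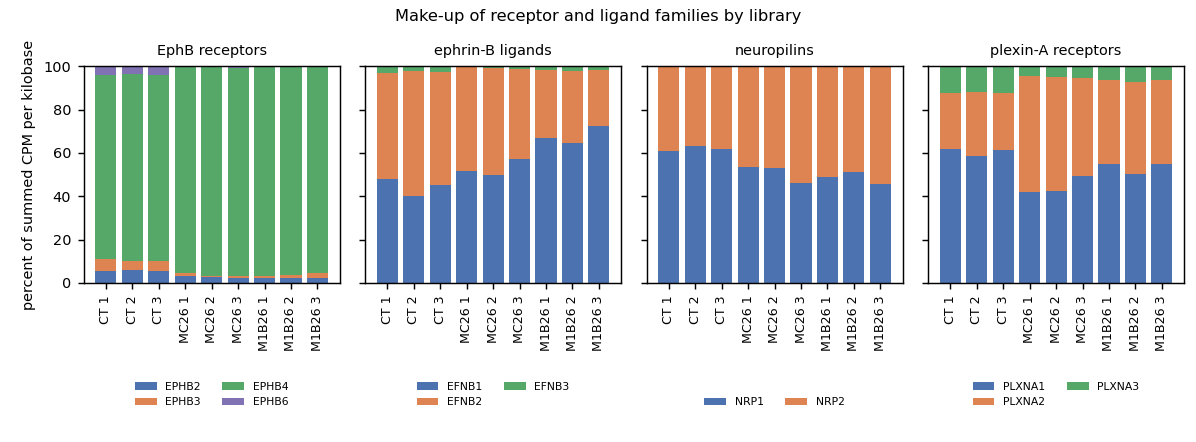
Share of each gene in the summed CPM per kilobase of its family, in percent, for each of the 9 libraries. EPHB4 takes at least 95.3% of the EphB level in each treated library and at most 86.3% in each CT library, and EFNB1 takes at least 64.6% of the ephrin-B level in each M1B26 library.

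Among the EphA receptors, EPHA2 and EPHA1 carried the signal. EPHA2 (chr1:16124337-16156069, minus strand) was read at 198, 169 and 217 CPM in CT, 306, 244 and 224 CPM in MC26, and 242, 225 and 224 CPM in M1B26. Every treated library was above every CT library. On the log2 scale the difference from CT came to 0.41 (SE 0.12, adjusted p = 0.0194, edgeR) in MC26 and 0.24 (SE 0.12, adjusted p = 0.115) in M1B26. The MC26 call was lost without CT replicate 2 (0.32, adjusted p = 0.0606) or MC26 replicate 1 (0.27, adjusted p = 0.0783), and without the latter the M1B26 value passed (adjusted p = 0.0490).

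EPHA1 (chr7:143390289-143408856, minus strand), the founding member of the Eph family, stood at 10.1, 7.64 and 9.0005 CPM in CT, 6.34, 6.93 and 7.53 CPM in MC26, and 20.3, 19.2 and 22.8 CPM in M1B26. M1B26 lay far above both other lines, and MC26 just below CT. EPHA1 rose 2.31-fold in M1B26 (log2 fold change 1.21, SE 0.12, adjusted p = 1.36e-05, edgeR) and was 3.001-fold higher in M1B26 than in MC26 (1.59, SE 0.12, adjusted p = 5.60e-06). The fall in MC26 was -0.38 (SE 0.12, adjusted p = 0.0282) and was lost without any 1 of 4 libraries (CT replicates 1 and 3, MC26 replicates 1 and 2), with values from -0.37 to -0.27 and adjusted p from 0.0660 to 0.141. Of the weakly expressed EphA genes, EPHA10 fell in both lines from a mean of 0.326 CPM in CT, and EPHA4 was not called.

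Of the 4 ephrin-A ligands tested, 1 changed in MC26 and 2 in M1B26. EFNA1, the main known partner of EPHA2, was read at 32.3, 28.4 and 28.8 CPM in CT, 11.6, 19.4 and 32.8 CPM in MC26, and 22.4, 16.8 and 19.5 CPM in M1B26. MC26 spanned the range of both other lines, and M1B26 lay below CT. Neither value passed the threshold, with -0.49 (SE 0.27, adjusted p = 0.182, edgeR) in MC26 and -0.61 (SE 0.27, adjusted p = 0.0864) in M1B26. Without MC26 replicate 3 both passed, at -0.95 (adjusted p = 0.00267) and -0.61 (adjusted p = 0.00966), and without MC26 replicate 1 the M1B26 value passed (adjusted p = 0.0133). Both also passed with no count filter. EFNA5 fell in both lines, from a mean of 33.1 CPM to 26.1 and 25.2 CPM, EFNA3 rose in M1B26 from 3.94 to 5.34 CPM, and EFNA4 was not called. A readthrough gene covers 43.9% of the EFNA3 and 15.04% of the EFNA4 exons, so their counts are uncertain. The readthrough gene was not found under its name in the deposited counts.

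The secreted semaphorins split, with SEMA3B and SEMA3C lower and SEMA3A higher in both treated lines. SEMA3C (chr7:80742538-80922359, minus strand) gave 68.9, 79.1 and 64.1 CPM in CT, 22.1, 24.8 and 23.8 CPM in MC26, and 30.7, 25.5 and 28.2 CPM in M1B26. All treated libraries were below CT, and M1B26 was above MC26 by a margin that did not pass the threshold (0.26, SE 0.10, adjusted p = 0.0557) but passed in 6 of 18 alternatives, among them DESeq2 and the fit without CT replicate 2 or M1B26 replicate 2. The fall was 2.99-fold in MC26 (log2 fold change -1.58, SE 0.10, adjusted p = 1.21e-06, edgeR) and 2.51-fold in M1B26 (-1.33, SE 0.10, adjusted p = 2.06e-06).

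SEMA3B (chr3:50267558-50277546, plus strand), which has been described as a tumour suppressor in other tissues, was read at 12.4, 11.9 and 14.5 CPM in CT, 2.59, 2.80 and 3.65 CPM in MC26, and 5.79, 5.80 and 4.60 CPM in M1B26. The 3 lines formed separate ranges. It fell 4.30-fold in MC26 (log2 fold change -2.10, SE 0.15, adjusted p = 3.36e-06, edgeR) and 2.41-fold in M1B26 (-1.27, SE 0.15, adjusted p = 4.91e-05), and M1B26 was 0.84 above MC26 (SE 0.16, adjusted p = 0.00187).

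SEMA3A (chr7:83955777-84492724, minus strand), the classical repulsive ligand of neuropilin-1, gave 4.43, 5.28 and 3.93 CPM in CT, 7.33, 7.63 and 6.23 CPM in MC26, and 10.4, 9.96 and 9.60 CPM in M1B26. The lines again formed separate ranges, here with CT the lowest and M1B26 the highest. Log2 fold changes against CT were 0.66 (SE 0.13, adjusted p = 0.00227, edgeR) in MC26 and 1.16 (SE 0.13, adjusted p = 3.42e-05) in M1B26, and the treated lines differed by 0.50 (SE 0.12, adjusted p = 0.00862). SEMA3F had means of 68.8 ± 9.56 CPM in CT, 59.9 ± 4.02 CPM in MC26 and 48.6 ± 2.32 CPM in M1B26. It fell in M1B26, without a call in MC26. Per length it was the most abundant secreted semaphorin on average over all libraries. In CT replicate 2, however, SEMA3C held the larger share of the family (46.9%, beside 43.3% for SEMA3F). SEMA3C and SEMA3F together dominated this family, with SEMA3C at 40.6% ± 5.61 of its per-length level in CT, 22.0% ± 1.94 in MC26 and 27.4% ± 1.52 in M1B26.

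Among the membrane semaphorins, SEMA4B rose in both treated lines while SEMA4G and SEMA6B were lowest in MC26 and highest in M1B26. SEMA4B (chr15:90160604-90229679, plus strand), the most abundant membrane semaphorin per length, was read at 77.7, 61.1 and 79.2 CPM in CT, 100.2, 116 and 133 CPM in MC26, and 141, 153 and 182 CPM in M1B26. The lines did not overlap. Relative to CT, the log2 change amounted to 0.68 (SE 0.13, adjusted p = 0.00222, edgeR) in MC26 and 1.12 (SE 0.13, adjusted p = 5.75e-05) in M1B26. The difference between the treated lines, 0.44 (adjusted p = 0.0203), was lost without MC26 replicate 1, MC26 replicate 2 or M1B26 replicate 3 (0.33 to 0.44, adjusted p 0.0618 to 0.0841).

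SEMA6B (chr19:4542593-4581776, minus strand), a transmembrane ligand of plexin-A receptors, stood at 5.06, 4.24 and 5.5003 CPM in CT, 0.845, 1.098 and 2.16 CPM in MC26, and 7.66, 7.12 and 8.03 CPM in M1B26. The 3 lines did not overlap. SEMA6B fell 3.61-fold in MC26 (log2 fold change -1.85, SE 0.26, adjusted p = 3.19e-04, edgeR) and was 5.51-fold higher in M1B26 than in MC26 (2.46, SE 0.26, adjusted p = 5.74e-05). The rise in M1B26 against CT was at the threshold (0.61, SE 0.23, adjusted p = 0.0485) and was lost without any 1 of 7 libraries (all but MC26 replicates 1 and 3), with values of 0.52 to 0.70 and adjusted p of 0.0548 to 0.130. It was also lost with total counts in place of scaled library sizes (0.52, adjusted p = 0.0813) and among genes with a mean of at least 50 counts (adjusted p = 0.0532).

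SEMA4G (chr10:100969504-100985871, plus strand) gave 1.47, 1.18 and 1.52 CPM in CT, 0.447, 0.575 and 0.964 CPM in MC26, and 2.95, 2.18 and 3.10 CPM in M1B26, with no overlap between lines. SEMA4G fell by 1.09 on the log2 scale in MC26 (SE 0.27, adjusted p = 0.00921, edgeR) and rose by 0.95 in M1B26 (SE 0.24, adjusted p = 0.00719), and the treated lines differed by 2.04 (SE 0.27, adjusted p = 2.10e-04). These values are uncertain, since MRPL43 on the opposite strand overlaps 28.0% of the SEMA4G exons. MRPL43 had means of 45.6, 52.1 and 79.2 CPM in CT, MC26 and M1B26 and log2 fold changes of 0.19, 0.79 and 0.60 in the same 3 comparisons, and the part of its reads in the SEMA4G counts was not tested.

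SEMA6A and SEMA7A turned on single libraries. SEMA6A (chr5:116443555-116574823, minus strand) was read at 1.80, 1.48 and 2.05 CPM in CT, 0.820, 1.23 and 1.39 CPM in MC26, and 1.87, 2.11 and 5.61 CPM in M1B26, where replicate 3 stood apart. It was 1.49 higher on the log2 scale in M1B26 than in MC26 (SE 0.39, adjusted p = 0.0120, edgeR), and 0.79 higher without M1B26 replicate 3 (adjusted p = 0.0321). Against CT it was not called in MC26 (-0.66) or M1B26 (0.83), although -0.66 passed without M1B26 replicate 3 (adjusted p = 0.0399) and the M1B26 value without M1B26 replicate 1 (1.11, adjusted p = 0.0337).

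SEMA7A (chr15:74409289-74433958, minus strand), a GPI-anchored ligand of plexin-C1, gave 2.4998, 2.84 and 3.32 CPM in CT, 7.18, 3.95 and 1.20 CPM in MC26, and 0.901, 0.923 and 1.33 CPM in M1B26. MC26 spread over a range that took in CT and part of M1B26. SEMA7A was lower in M1B26 than in CT (log2 fold change -1.45, SE 0.49, adjusted p = 0.0300, edgeR), a call lost without CT replicate 2 or 3 or M1B26 replicate 1 or 2 (-1.46 to -1.32, adjusted p 0.0561 to 0.0943). It was -1.95 against MC26 (SE 0.49, adjusted p = 0.00918), and -1.27 without MC26 replicate 1. In MC26 against CT the value was 0.50 (adjusted p = 0.406). Leaving out 1 library at a time gave -0.18 to 0.95, the highest without MC26 replicate 3 (adjusted p = 0.0130), so its direction turned on single libraries.

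Other membrane semaphorins were SEMA4D, which fell in MC26 from a mean of 15.2 to 10.3 CPM, SEMA5A, which rose in MC26 from 2.64 to 4.08 CPM, SEMA6C, which rose in M1B26 from 1.69 to 2.99 CPM, and SEMA6D, which had 1 to 13 counts a library. SEMA6D rose in M1B26 from a mean of 0.0664 to 0.226 CPM and was at the threshold in MC26 (adjusted p = 0.0497, edgeR), where its libraries overlapped those of CT. SEMA4C and SEMA4F were not called against CT in either line. SEMA3G, a weakly expressed secreted member, rose in M1B26 from 0.286 to 0.603 CPM.

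**Figure D4:**
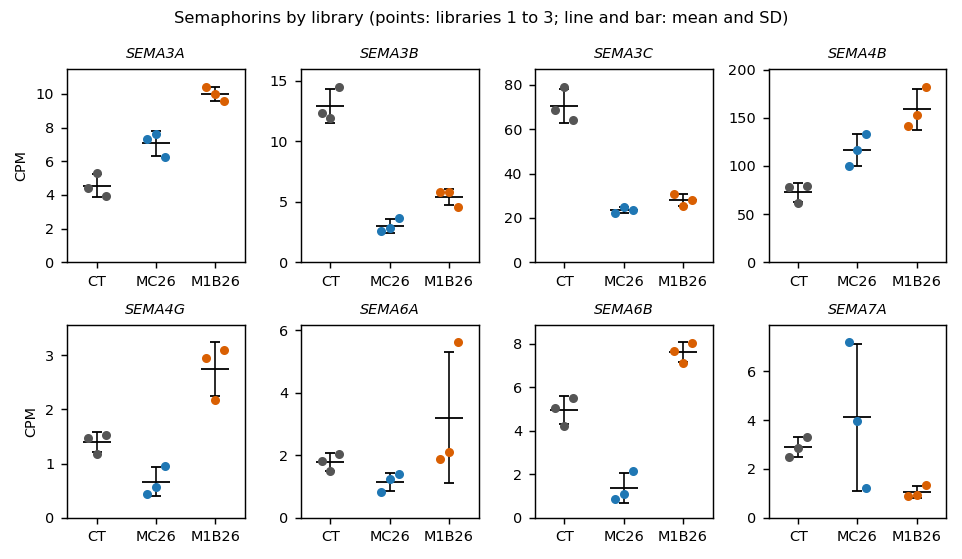
CPM of 8 semaphorin genes in each library (points, linear axes from 0), with the mean (line) and SD (bar) of each line. SEMA3B and SEMA3C are lower in all treated libraries, SEMA3A and SEMA4B climb from CT through MC26 to M1B26, SEMA4G and SEMA6B are lowest in MC26, and single libraries set the spread of SEMA6A in M1B26 and SEMA7A in MC26.

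The neuropilins are co-receptors that class 3 semaphorins share with VEGF. NRP1 (chr10:33177492-33336262, minus strand) was read at 45.7, 50.3 and 49.7 CPM in CT, 59.8, 66.8 and 45.7 CPM in MC26, and 30.7, 29.1 and 26.8 CPM in M1B26. M1B26 was below every other library, and MC26 overlapped CT. NRP1 fell 1.68-fold in M1B26 (log2 fold change -0.75, SE 0.12, adjusted p = 4.73e-04, edgeR), and its MC26 value of 0.24 (SE 0.12, adjusted p = 0.132) passed only without MC26 replicate 3 (0.38, adjusted p = 0.00563).

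NRP2 (chr2:205681990-205798133, plus strand) stood at 35.2, 35.3 and 36.8 CPM in CT, 62.2, 71.8 and 64.5 CPM in MC26, and 39.0, 33.7 and 38.6 CPM in M1B26. MC26 was above all other libraries, and M1B26 overlapped CT. NRP2 rose 1.85-fold in MC26 (log2 fold change 0.89, SE 0.08, adjusted p = 1.20e-05, edgeR) and had a value of 0.05 in M1B26 (SE 0.08, adjusted p = 0.602). Both neuropilins were lower in M1B26 than in MC26, by -0.99 for NRP1 (adjusted p = 1.36e-04) and -0.83 for NRP2 (adjusted p = 2.68e-05). NRP2 accounted for 37.9% ± 1.12 of the per-length neuropilin level in CT, 49.1% ± 4.19 in MC26 and 51.5% ± 2.72 in M1B26, so it was above CT in both lines, in MC26 with more NRP2 and in M1B26 with less NRP1.

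Plexins carry the intracellular signal of semaphorins. PLXNA2 (chr1:208022242-208244384, minus strand) gave 98.3, 97.8 and 114 CPM in CT, 416, 351 and 271 CPM in MC26, and 183, 166 and 154 CPM in M1B26. The lines did not overlap, with MC26 the highest. PLXNA2 rose 3.35-fold in MC26 (log2 fold change 1.74, SE 0.14, adjusted p = 5.52e-06, edgeR) and 1.62-fold in M1B26 (0.70, SE 0.14, adjusted p = 0.00159), and M1B26 was below MC26 by -1.05 (SE 0.14, adjusted p = 2.07e-04). It supplied 27.3% ± 2.02 of the per-length plexin-A level in CT, 50.6% ± 4.73 in MC26 and 39.9% ± 2.07 in M1B26.

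PLXND1 (chr3:129555214-129606676, minus strand), the receptor of SEMA3E, was read at 32.3, 26.5 and 33.9 CPM in CT, 13.7, 14.8 and 22.7 CPM in MC26, and 18.8, 19.2 and 20.5 CPM in M1B26. Both treated lines lay below CT and overlapped. Log2 fold changes against CT were -0.86 (SE 0.17, adjusted p = 0.00212, edgeR) in MC26 and -0.67 (SE 0.16, adjusted p = 0.00609) in M1B26. PLXND1 differed by 0.19 between the treated lines, which passed only without MC26 replicate 3 (0.45, adjusted p = 0.00898).

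PLXNB2 (chr22:50274979-50307646, minus strand) stood at 254, 199.9 and 283 CPM in CT, 217, 221 and 257 CPM in MC26, and 208, 191 and 188 CPM in M1B26, and M1B26 overlapped CT. Its fall in M1B26 was small (log2 fold change -0.33, SE 0.12, adjusted p = 0.0356, edgeR) and was lost without any 1 of 6 libraries (CT replicates 1 and 3, MC26 replicate 2 and each M1B26 library), with values of -0.37 to -0.22 and adjusted p of 0.0535 to 0.143. Against MC26 the value was -0.24 (adjusted p = 0.117), which passed without CT replicate 2 (adjusted p = 0.0264). PLXNA1 rose in MC26 from a mean of 187 to 243 CPM, PLXNA3 fell in both lines from 39.4 to 27.7 and 23.7 CPM, and PLXNB3 rose in both from 6.37 to 8.95 and 11.5 CPM. PLXNB1 and PLXNC1 were not called.

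NTN4 and the netrin receptor UNC5B each fell in both treated lines. NTN4 (chr12:95657807-95791189, minus strand), a netrin related to laminins and found in basement membranes, gave 16.4, 14.5 and 15.6 CPM in CT, 5.17, 7.42 and 5.76 CPM in MC26, and 4.55, 4.71 and 4.14 CPM in M1B26. The lines formed separate ranges with M1B26 the lowest. NTN4 fell 2.54-fold in MC26 (log2 fold change -1.34, SE 0.13, adjusted p = 2.17e-05, edgeR) and 3.48-fold in M1B26 (-1.80, SE 0.13, adjusted p = 2.18e-06). The difference between the treated lines, -0.45 (adjusted p = 0.0207), was lost without MC26 replicate 2 (-0.29, adjusted p = 0.0913) or M1B26 replicate 3 (-0.40, adjusted p = 0.0718).

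UNC5B (chr10:71212570-71302864, plus strand), a netrin receptor that can trigger cell death when its ligand is missing, was read at 29.1, 20.9 and 28.8 CPM in CT, 8.53, 10.5 and 11.7 CPM in MC26, and 6.58, 6.32 and 9.36 CPM in M1B26. All treated libraries lay below CT, and the treated lines overlapped. UNC5B fell 2.58-fold in MC26 (log2 fold change -1.36, SE 0.18, adjusted p = 1.70e-04, edgeR) and 3.55-fold in M1B26 (-1.83, SE 0.18, adjusted p = 1.65e-05). Between the treated lines, its value of -0.46 (adjusted p = 0.0649) passed without CT replicate 2 (adjusted p = 0.0387), MC26 replicate 1 (adjusted p = 0.0405) or M1B26 replicate 3 (adjusted p = 0.0168), and with DESeq2 and with no count filter.

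NTN1 (chr17:9021510-9244000, plus strand), the best known attractive cue, was weak in every line, at 0.757, 0.480 and 0.963 CPM in CT, 0.373, 0.235 and 0.353 CPM in MC26, and 0.496, 0.520 and 0.332 CPM in M1B26. MC26 lay below CT, and M1B26 overlapped both. The fall was -1.26 in MC26 (SE 0.32, adjusted p = 0.00958, edgeR) and -0.79 in M1B26 (SE 0.30, adjusted p = 0.0466). The first was lost without CT replicate 3 (-0.998, adjusted p = 0.0537), and the second without any 1 of 8 libraries (all but CT replicate 2), with values of -0.90 to -0.54 and adjusted p of 0.0516 to 0.229, and with DESeq2 (adjusted p = 0.122) and with no count filter (adjusted p = 0.0572). NTNG1, a membrane-anchored netrin, rose in both lines from a mean of 0.116 CPM to 0.733 and 0.573 CPM. UNC5A was not called.

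Of the Slit and Robo genes, ROBO4 had the largest changes. ROBO4 (chr11:124883691-124898500, minus strand), known mainly from endothelium, stood at 4.23, 4.32 and 5.22 CPM in CT, 9.50, 10.6 and 8.30 CPM in MC26, and 14.2, 12.3 and 11.5 CPM in M1B26. The lines did not overlap and M1B26 was the highest. ROBO4 rose 2.04-fold in MC26 (log2 fold change 1.03, SE 0.13, adjusted p = 1.57e-04, edgeR) and 2.74-fold in M1B26 (1.45, SE 0.13, adjusted p = 8.84e-06). Of the 5 endothelial markers, CDH5 and VWF were at or near 0, PECAM1 fell in both lines (mean CPM 5.04, 0.268 and 0.897 in CT, MC26 and M1B26), TEK rose in both (0.544, 1.72 and 1.27 CPM), and KDR fell in MC26 (-1.51 on the log2 scale) and had 0.05 in M1B26 (not called). Their sum was 8.15 to 8.25 CPM in CT, 2.19 to 3.76 CPM in MC26 and 3.65 to 6.59 CPM in M1B26, and their part in the ROBO4 values was not tested. The difference between the treated lines, 0.42 (adjusted p = 0.0213), was lost without MC26 replicate 3 (0.34, adjusted p = 0.0643) or M1B26 replicate 1 (0.33, adjusted p = 0.0859), and unnamed opposite-strand genes overlap 18.01% of the ROBO4 exons.

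SLIT2 (chr4:20251905-20620561, plus strand), the expressed Slit ligand, was read at 14.96, 16.5 and 15.5 CPM in CT, 13.2, 15.4 and 18.4 CPM in MC26, and 23.1, 21.2 and 30.3 CPM in M1B26. M1B26 was above all other libraries, and MC26 and CT overlapped. SLIT2 rose 1.60-fold in M1B26 (log2 fold change 0.67, SE 0.14, adjusted p = 0.00270, edgeR) and had a value of 0.01 in MC26 (SE 0.15, adjusted p = 0.965).

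ROBO1 (chr3:78597239-79767998, minus strand), a main Slit receptor, gave 43.1, 42.8 and 42.6 CPM in CT, 50.8, 54.1 and 52.3 CPM in MC26, and 45.3, 41.0 and 41.2 CPM in M1B26. MC26 was above the other lines, which overlapped. The rise in MC26 was small but above the replicate spread (log2 fold change 0.29, SE 0.06, adjusted p = 0.00442, edgeR), and the M1B26 value was -0.01 (SE 0.06, adjusted p = 0.896). ROBO3 rose in M1B26, from a mean of 30.6 to 40.8 CPM.

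**Figure D5:**
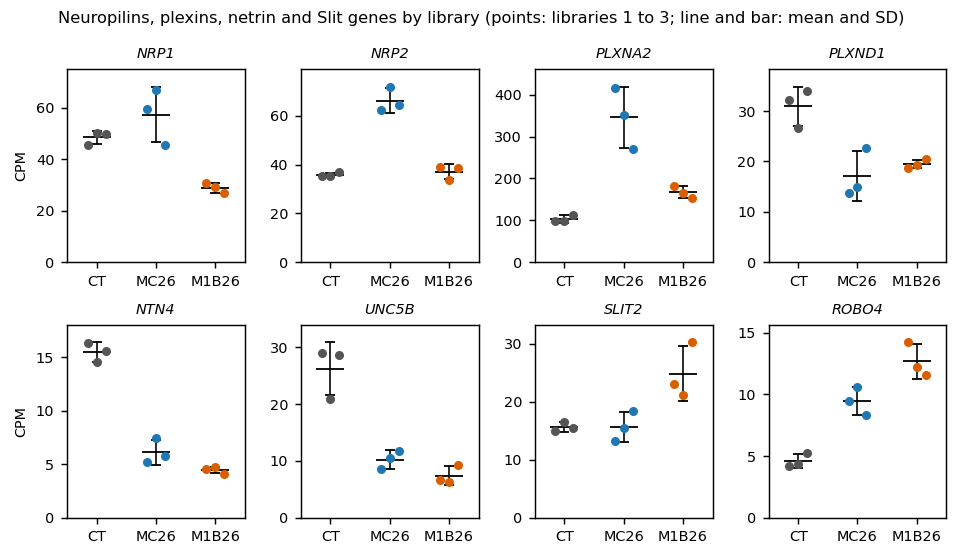
CPM of the neuropilins, PLXNA2, PLXND1, NTN4, UNC5B, SLIT2 and ROBO4 in each library (points, linear axes from 0), with the mean (line) and SD (bar) of each line. NRP2 and PLXNA2 are highest in MC26, NRP1 is lowest in M1B26, NTN4 and UNC5B are lower in all treated libraries, and SLIT2 and ROBO4 are highest in M1B26.

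Replicate spread set how firmly each of these values can be read. Among the 42 members with a mean of at least 1 CPM, CT had a median coefficient of variation of 12.1%, MC26 of 12.6% and M1B26 of 8.84%. No member in CT, 6 in MC26 and 3 in M1B26 were above 30%, with the highest values for EPHB3 in CT (24.4%), EPHB6 in MC26 (79.6%) and SEMA6A in M1B26 (65.6%).

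The list of 70 further guidance genes, made of receptor partners and cytoplasmic effectors, had 58 tested members. In MC26, 31 changed, 18 higher and 13 lower, 53.4% beside 38.7% of all genes, and with total counts in place of scaled library sizes the split was 13 higher and 18 lower. In M1B26, 31 changed (53.4% beside 48.9% of all genes), 11 higher and 20 lower, and 8 higher and 26 lower with total counts. Between the treated lines 32 differed (55.2% beside 39.5% of all genes), 6 higher and 26 lower in M1B26, beside 21.2% and 18.4% of all genes. Cytoplasmic effectors were 43 of the 58 tested genes and 21 of the 26 lower ones. The medians were 0.03, -0.12 and -0.18 on the log2 scale, beside 0.00 for all genes.

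NRCAM, an adhesion molecule that can join the neuropilin-2 receptor complex, rose most among the partners, with 5.88 ± 0.655 CPM in CT, 74.4 ± 4.94 CPM in MC26 and 76.6 ± 6.97 CPM in M1B26 (log2 fold changes 3.69 and 3.73, adjusted p = 3.59e-09 and 3.18e-09, edgeR). FLRT3, which binds UNC5B and ROBO1, rose in MC26 (1.61) and was lower in M1B26 than in MC26 (-1.43). FYN, a Src-family kinase, rose in both lines (1.44 and 1.03), and RRAS, a small GTPase that plexins switch off, rose in M1B26 by 0.80. On the lower side were RGMA, a ligand of neogenin (-2.43 and -2.03), and NGEF, an exchange factor bound by Eph receptors (-2.19 and -2.79). L1CAM, a partner of neuropilin-1, also fell in both lines (-1.45 in MC26 and -1.93 in M1B26). So did CHN1, a chimaerin that turns off Rac behind Eph receptors (-1.98 in MC26 and -1.68 in M1B26).

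Between the treated lines the leading partners were KDR, the VEGF receptor that works with NRP1 (1.56 higher in M1B26 on the log2 scale), TIAM1, a Rac exchange factor (0.74), and CHN2 (0.69), each with adjusted p under the threshold in edgeR. ABLIM3, an actin-binding protein (-1.19), and SRGAP3, a GTPase-activating protein of the Slit pathway (-0.71), were lower in M1B26. Of the netrin receptors outside the UNC5 family, NEO1 had means of 49.9, 42.5 and 45.9 CPM in CT, MC26 and M1B26 and was not called, and DCC had at most 1 count in any library.

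Short motifs were counted on both strands of the 250 bases before each RefSeq start, in 93 windows of 59 matched members and in 35116 windows of all genes. GGCGCC was found in 21.5% of member windows and 16.4% of all windows, CAGCTG in 12.9% and 14.0%, the STAT motif TTCNNNGAA in 5.38% and 6.57%, and the SMAD palindrome GTCTAGAC in 0% and 0.182%. Of the windows printed above, EPHB3 held 1 CAGCTG and EPHB4 held 1 GGCGCC, while those of EPHB2 and EFNB1 held none of the 4.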

How the data were processed

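Poly-A RNA from 3 cultures each of CT, MC26 and M1B26 was sequenced in paired-end mode. The authors deposited raw counts per gene symbol, aligned per the labels with STAR 2.7.3a to GRCh38. The paper states that expression was quantified with Salmon 1.1.0 on protein-coding genes of an earlier GENCODE release than the v44 models used here. The deposited counts also cover non-coding genes, such as SEMA6A-AS1, so the program behind them is not settled. The strand setting and the treatment of multiply aligned reads are not given in the sources used here. Groups and replicate numbers came from the sample titles.

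Genes were filtered with filterByExpr (minimum count 10), scaled by TMM and tested over all 9 libraries with the edgeR 4.0.16 quasi-likelihood test (R 4.3.3), with line as the only term and Benjamini-Hochberg adjustment over 15717 genes. The script was tested on simulated data. Standard errors were taken from the log2 fold change and F. Values in every library were given for members with a called absolute log2 fold change of at least 1, no overlap and a mean of at least 1 CPM, and for EPHA2, EFNA1, EPHB4, EFNB2, ROBO1, SLIT2, NTN1, NTN4, UNC5B, NRP1, NRP2, SEMA3A, PLXNB2 and PLXND1. Among partners, the 3 highest and 3 lowest changed ones with a mean of at least 1 CPM were named for each comparison, plus NEO1 and DCC. The members and lists were chosen with earlier results of these data known. The alternatives tried were total counts, RLE factors, other count filters, DESeq2 1.42.0, the 6 libraries compared, a replicate block, stricter thresholds and leaving out each library. Depth intervals cover counting error only. Promoter sequences came from RefSeq (GRCh38.p14), which matched 59 of 70 members.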

Additional observations from a re-analysis of the deposited data

Results flagged for a closer look

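For 19 of the 29 guidance genes given in full, the 2 treated lines differed from each other in the direct edgeR test (adjusted p under 0.05), so their changes against the shared CT libraries were unequal. Of these, 12 were higher and 7 lower in M1B26 than in MC26. Over all genes tested 39.5% differed, and 27 of the 50 tested members, while the genes given in full were partly chosen for large called changes, this comparison included. The widest gaps were SEMA6B (log2 fold change 2.46) and SEMA4G (2.04), which were below CT in MC26 and above it in M1B26, as was EPHA1 (1.59). EFNB3 (1.54), EPHB3 (0.95) and SEMA3B (0.84) were lowest in MC26, and SEMA6A (1.49) was raised by 1 M1B26 library. SLIT2 (0.66), SEMA3A (0.50), SEMA4B (0.44), ROBO4 (0.42) and EFNB1 (0.41) were highest in M1B26. On the lower side, SEMA7A (-1.95), PLXNA2 (-1.05), NRP2 (-0.83), EFNB2 (-0.59) and ROBO1 (-0.30) were highest on average in MC26, whereas NRP1 (-0.99) and NTN4 (-0.45) were lowest in M1B26. Sorting, clonal selection and batch cannot be told apart from line in these values.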

How the results depend on the processing

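The counts of changed guidance genes, 31 in MC26, 32 in M1B26 and 27 between the treated lines, stayed within 1.5 times under DESeq2, RLE factors, total counts, both count filters and fits of the 6 libraries compared. Requiring more than a 1.5-fold change (glmTreat) left 12, 13 and 8, and an adjusted p under 0.01 left 17 between the treated lines. Leaving out 1 library at a time gave 26 to 36, 26 to 34 and 22 to 33. For partners and effectors, with 31, 31 and 32 changed, glmTreat left 12, 9 and 3, an adjusted p under 0.01 left 18 between the treated lines, and leaving out 1 library gave 24 to 34, 27 to 32 and 21 to 34, the lowest without M1B26 replicate 2. The stricter rules lower counts by construction, and the cause of the lower count without that library was not tested. Of 62 called values among the 29 genes given in full, 30 kept their call under all 18 alternatives, 12 lost it on leaving out a library, none changed sign, and 13 values not called gained a call under at least 1 alternative. With the replicate number as a block, the counts were 30, 31 and 27 for guidance genes and 32, 31 and 32 for partners. Among the genes given in full, the block ended the call of NTN1 in M1B26 against CT and gave UNC5B a call between the treated lines. Deviations of same-numbered libraries from their line means correlated weakly (9 pairs, -0.114 to 0.136, 2 over 0.1), so the numbers were not treated as pairing. Between MC26 and M1B26 the same-numbered pairs were all positive (0.081, 0.042 and 0.136), and differently numbered pairs gave -0.114 to 0.041.

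Counts of the weakest members, such as EPHB6 with 5 counts in MC26 replicate 1, limit their values. The strand setting is not given in the sources used here, so reads of SEMA4G, EFNB2 and ROBO4 and of genes on the opposite strand cannot be told apart. Of those opposite-strand genes, MRPL43 had counts of its own, while the unnamed ones were not found in the deposited counts under their identifiers.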
